A study of Rattus norvegicus with 48 samples.

Results

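The comparison described here set serum microRNAs (miRNAs) of PTH-treated wild-type (WT) rats against those of placebo-treated WT rats, with 5 sera in each group. The members were the serum libraries labelled group WT with treatment PTH or Placebo, which gave 10 of the 48 libraries in the series. The series holds 32 serum and 16 ulna bone libraries from male WT and Zucker Diabetic Fatty (ZDF) rats under placebo, PTH, anti-sclerostin or insulin. The WT rats were Zucker lean animals that carry the intact leptin receptor, whereas ZDF fa/fa rats lack a working receptor and turn diabetic. Per the study's methods, every animal, controls included, had a small defect drilled into the femur and ate an energy-rich chow, and the placebo was water given under the skin. Serum was taken after 12 weeks of treatment, and neither the study nor the labels give the time since the last dose. Each library was 1 serum sample. The labels carry no rat numbers, so rats are numbered below within each group in the order of deposition, and equal numbers do not pair animals.

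Parathyroid hormone (PTH) raises blood calcium through bone and kidney, and given in daily pulses it builds bone. Its receptor sits on osteoblasts, osteocytes and kidney tubule cells. miRNAs are short RNAs that repress messenger RNAs through a seed near their 5′ end, and they circulate in vesicles, lipoproteins and protein complexes shed by blood cells, vessel walls and organs such as the liver. A serum level is therefore a mixture, and release from more cells cannot be told apart from more release per cell.

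No miRNA passed FDR < 0.2 between PTH-treated and placebo-treated WT rats. The liver miRNA miR-802-5p had the smallest p and stood higher in 4 of 5 PTH-treated rats than in any placebo rat, but it had no read in the remaining one. The red-cell miRNA miR-451-5p had the second smallest p, and its lower mean under PTH came with 2 placebo sera of very high level. At the same threshold, PTH against placebo gave 23 called miRNAs in the ulna of WT rats, a count that ran from 0 to 87 when single bone libraries were left out.

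The mature sequences of the miRNAs that led the comparison, of both arms of the liver miRNAs miR-122 and miR-192 and of a relative of miR-16-5p are shown because the results below turn on them. They are RefSeq sequences on the rat build GRCr8, written 5′ to 3′ with the seed (bases 2 to 8) in capitals. A RefSeq sequence was matched to 151 of the 170 miRNAs tested.
miR-451-5p: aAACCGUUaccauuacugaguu
miR-193a-3p: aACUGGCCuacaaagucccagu
miR-122-3p: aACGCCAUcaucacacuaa
miR-122-5p: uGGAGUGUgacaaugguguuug
miR-192-3p: cUGCCAGUuccauaggucacag
miR-192-5p: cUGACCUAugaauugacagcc
miR-199a-3p: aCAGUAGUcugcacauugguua
miR-139-5p: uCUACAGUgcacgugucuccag
miR-16-5p: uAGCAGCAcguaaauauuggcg
miR-15b-5p: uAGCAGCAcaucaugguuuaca
miR-25-5p: aGGCGGAGacacgggcaauugc
miR-29a-3p: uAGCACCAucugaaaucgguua

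The genes of these miRNAs lie on several chromosomes of GRCr8. miR-451-5p was placed at chr10:63459585-63459606 on the plus strand, outside any other annotated gene. miR-193a-3p lies on the same chromosome at chr10:65170370-65170391, within the protein-coding gene Faul2. miR-192-5p and miR-192-3p are the arms of a single hairpin at chr1:212994232-212994252 and chr1:212994275-212994296. miR-199a-3p falls within Dnm3 at chr13:77116294-77116315, and miR-139-5p within Pde2a at chr1:165290865-165290886. miR-16-5p and miR-15b-5p share the seed AGCAGCA and both fall within Smc4, at chr2:155555343-155555364 and chr2:155555197-155555218. miR-25-5p lies within Mcm7 at chr12:22156690-22156711 on the minus strand. The seeds of miR-451-5p, miR-122-3p, miR-139-5p and miR-199a-3p all differ, so these miRNAs are not of 1 seed family.

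The libraries were shallow for a test of single miRNAs. Reads counted on rat miRNAs ranged from 53249 to 153860 under PTH and from 64957 to 205664 under placebo (exact permutation p = 0.405). miRNAs made up between 0.837% and 4.09% of the library reads under PTH and between 1.58% and 2.89% under placebo (exact permutation p = 0.413). Without PTH rat 5, which had the 4.09%, the share was lower under PTH with an exact permutation p of 0.0397. Leaving out the rat of highest share lowers the PTH mean by choice. That p was also the lowest over the 10 leave-outs of this measure, so it is not evidence of a difference. A count of 0 allows a level of up to 3 reads, which is between 15.7 and 51.7 CPM in these libraries. Such limits cover counting error only. CPM here are miRNA reads scaled to a common library total by the trimmed mean of M-values (TMM). PTH rat 3 and placebo rat 3 had the highest values on the first principal component, which held 44.8% of the variance, and PTH rat 3 had the lowest mean correlation with the other 9 libraries (0.832). The median correlation was 0.895 between sera of PTH-treated rats, 0.913 between sera of placebo rats and 0.912 between sera of different groups, so sera of unlike treatment were as much alike as sera of the same treatment.

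**Figure D1:**
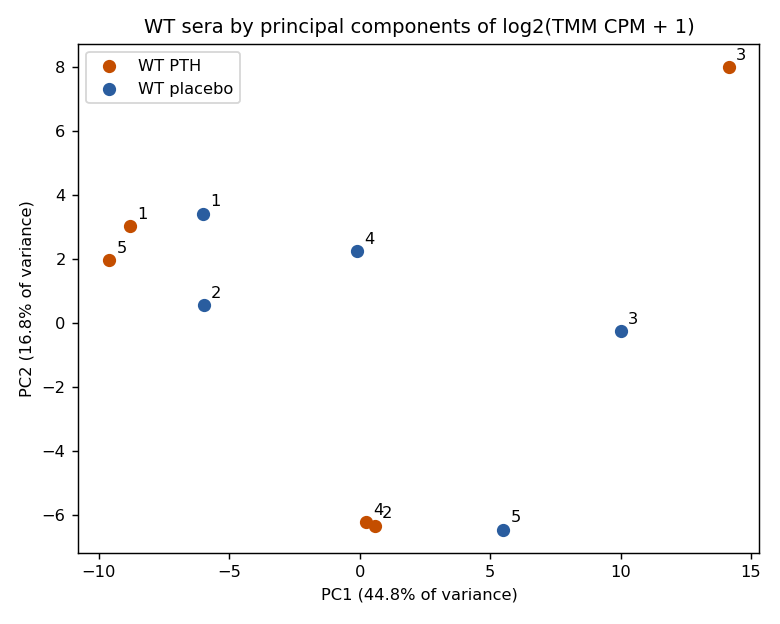
The 10 WT sera on the first and second principal components of log2(TMM CPM + 1), with the share of variance on each axis, numbered by rat and coloured by treatment. PTH rat 3 and placebo rat 3 lie at 14.1 and 10.0 on the first component, and the groups are interspersed.

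Of 763 rat miRNAs listed, 485 had a read in these sera and 170 held enough reads to be tested with edgeR's quasi-likelihood test. 0 of the 170 (0%) passed FDR < 0.2, and the lowest FDR was 0.985. 2 of the 170 (1.18%) had an unadjusted edgeR p below 0.05, where 8.5 would be reached with no difference at all. DESeq2 called 0 of 484 miRNAs, with 8 at an unadjusted p below 0.05. Among the tested miRNAs, 0 (0%) had groups that did not overlap, and among the 485 with a read 1 (0.206%) did. Of the log2 fold changes, 91 lay above zero and 79 below, with a median of 0.028, a balance that TMM scaling itself sets. Scaling to the synthetic RNAs added at extraction moved that median to -0.30.

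The errors set what these sera could show. The median standard error of a log2 fold change was 0.46, with a range from 0.30 to 1.03. The 95% interval stayed within a 2-fold change either way for 25 miRNAs (14.7%), and 21 of those were among the 72 whose mean level reached 1000 CPM. For the remaining miRNAs the interval reached a 2-fold difference in at least one direction. The log2 fold change exceeded 1 in size for 6 miRNAs.

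miR-802-5p, which is made mainly in liver and represses hepatic transcription factors of glucose handling, had the smallest p. In PTH rats 1 to 5 it measured 601, 895, 0, 382 and 232 CPM, from 63, 60, 0, 42 and 28 reads. In placebo rats 1 to 5 it measured 189, 101, 101, 165 and 46.3 CPM, from 36, 9, 13, 12 and 6 reads. The 4 PTH-treated rats with reads all lay above the highest placebo rat, while PTH rat 3, with no read, had a level of at most 51.7 CPM, which does not place it below placebo rat 5. The log2 fold change was 1.80 ± 0.74 (SE, n = 5 and 5; 95% interval 0.23 to 3.38; edgeR p = 0.0276, FDR = 0.985; exact permutation p = 0.944). The exact test works on log2(CPM + 1), where the rat at 0 pulls the mean down. Without PTH rat 3 the groups did not overlap, at 247 to 833 CPM against 40.5 to 179 CPM, as the choice of the animal left out fixes, and the log2 fold change was 2.13 with an edgeR FDR of 0.119. That was the 1 call among the 10 fits that left out a rat, over which the log2 fold change ran from 1.35 to 2.13. Leaving out any of the other 9 rats gave exact permutation p-values from 0.921 to 1.

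**Figure D2:**
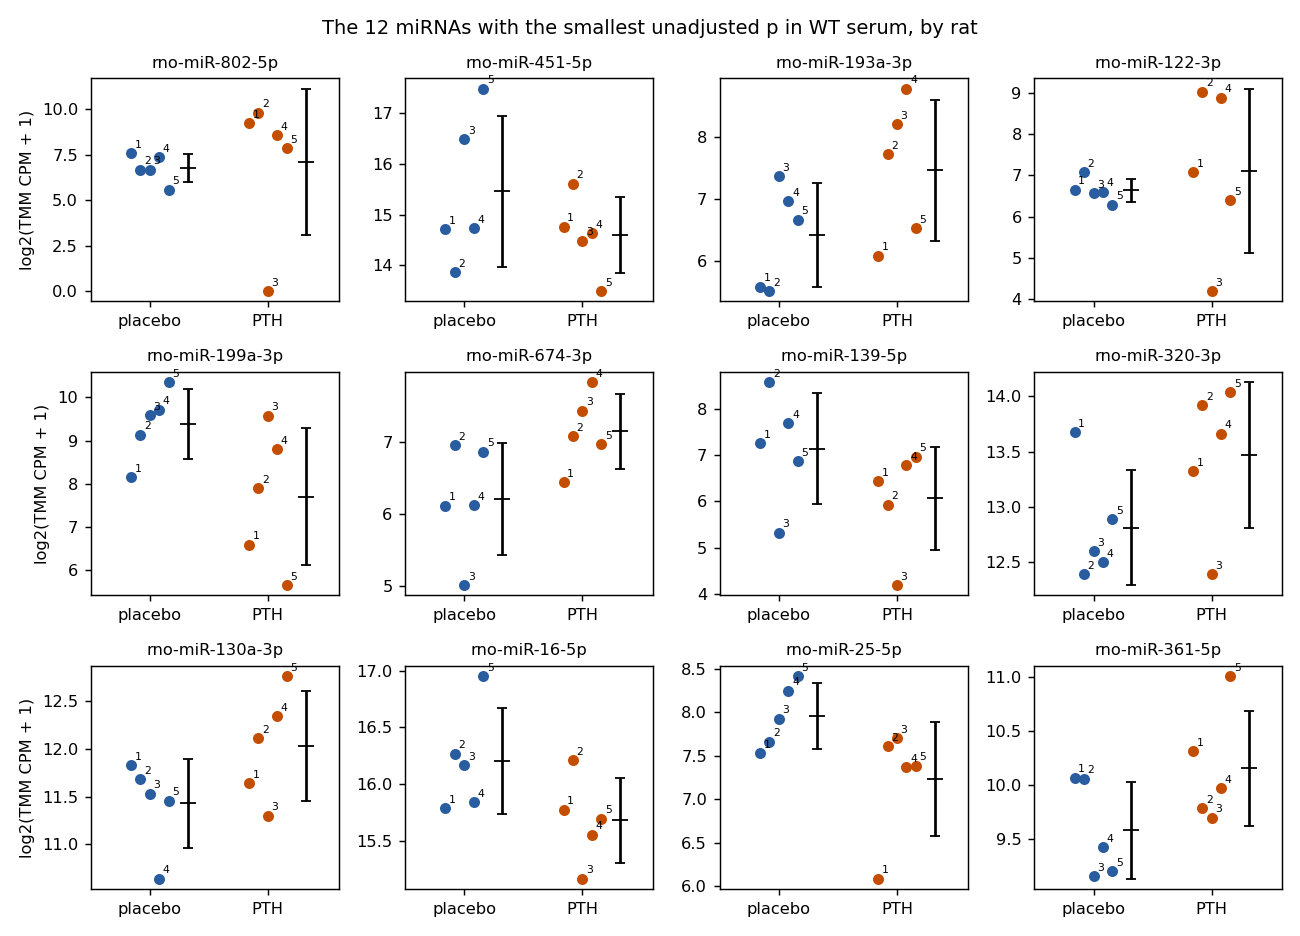
Level in each rat, as log2(TMM CPM + 1), of the 12 miRNAs with the smallest unadjusted p in WT serum. Points are rats, numbered within their group, and the bar to the right of each group is its mean ± SD (n = 5); for miR-802-5p PTH rat 3 sits at 0 while the other PTH-treated rats lie above every placebo rat, and for miR-451-5p placebo rats 3 and 5 lie above all other rats.

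PTH rat 3 was also the lowest or among the lowest for the other liver miRNAs. miR-122-3p, the minor arm of the most abundant miRNA of hepatocytes, measured 134, 522, 17.2, 473 and 82.9 CPM in PTH rats 1 to 5 and 99.6, 134, 93.6, 96.1 and 77.2 CPM in placebo rats 1 to 5. The high mean under PTH came from rats 2 and 4, and the other 3 lay within or below the placebo range. The log2 fold change of miR-122-3p was 1.29 ± 0.64 (edgeR p = 0.0630, exact permutation p = 0.643). miR-122-5p, the major arm in liver, measured 1126, 522, 86.2, 200 and 82.9 CPM under PTH against 210, 347, 195, 178 and 108 CPM under placebo, so its mean was raised by rats 1 and 2 instead. Its log2 fold change was 0.97 ± 0.66 (edgeR p = 0.163, exact permutation p = 0.667). miR-192-5p, a miRNA of liver, gut and kidney epithelium, measured 7643, 6238, 603, 4683 and 2438 CPM under PTH against 5774, 4263, 1092, 3994 and 1127 CPM under placebo. Its groups overlapped widely, with a log2 fold change of 0.41 ± 0.60 (edgeR p = 0.505, exact permutation p = 0.754).

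Of the 5 liver miRNAs listed, 4 were tested and all 4 had log2 fold changes above zero, with a median of 1.13 beside 0.028 over all tested miRNAs. 0 of the 4 passed FDR < 0.2. The 5th, miR-194-5p, had too few reads to test, at 0 to 17.2 CPM under PTH and 0 to 22.4 CPM under placebo. The summed level of the list ran from 724 to 9504 CPM under PTH and from 1359 to 6288 CPM under placebo, and so was both lowest and highest in PTH-treated rats. The list median depended on single animals and on scaling. Without PTH rat 1, miR-122-3p no longer held enough reads to be tested, so the median there is over fewer members. Of the 3 liver miRNAs still tested, 1 was above zero and the median was -0.019. Without PTH rat 3 it was 1.41. Extraction-control scaling, which shifted the median of all miRNAs by -0.32, gave 0.20 for the liver list.

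miR-451-5p, the most red-cell-specific of the miRNAs in blood and a guide to hemolysis, had a log2 fold change of -1.32 ± 0.61 (95% interval -2.63 to -0.017; edgeR p = 0.0474, FDR = 0.985; exact permutation p = 0.270). It measured 27767, 49889, 22976, 25471 and 11526 CPM in PTH rats 1 to 5 and 26972, 14960, 91804, 27204 and 183498 CPM in placebo rats 1 to 5. Placebo rats 3 and 5 exceeded all other rats, and the other 3 placebo rats lay within the range of the PTH-treated ones. Set against miR-23a-3p, as is done to gauge red-cell RNA in serum, miR-451-5p gave a log2 ratio of at least 3.24 in those same placebo rats and of at most 1.32 in every other serum. Since miR-451-5p is part of the ratio, this is not a separate measure of red-cell RNA. That ratio had a median of 0.85 under PTH and 0.79 under placebo, and a difference of means of -1.15 (exact permutation p = 0.246). With the ratio as a covariate, which holds miR-451-5p itself, the log2 fold change of miR-451-5p was 0.045, and without placebo rat 5 it was -0.55.

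The other members of the erythrocyte list had smaller differences. All 4 members found in the files were tested, 1 lay above zero and 3 below, with a median of -0.25 (-0.70 to -0.096 with a rat left out), and 0 passed the FDR threshold. miR-144-3p and miR-144-5p, made from the same transcript as miR-451-5p, had log2 fold changes of -0.37 ± 0.49 and 0.011 ± 0.42. miR-486, abundant in red cells, ranged from 19187 to 135953 CPM under PTH and from 51265 to 112589 CPM under placebo, with a log2 fold change of -0.13 ± 0.46. Its highest placebo serum was that of rat 4, and not of rat 3 or 5. The summed erythrocyte level ran from 32703 to 195468 CPM under PTH and from 80739 to 277579 CPM under placebo. Whether red-cell RNA had a part in the differences of other miRNAs was not tested. With the ratio named above as a covariate edgeR called 0 miRNAs, as it did without it, so this count cannot decide the question.

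**Figure D3:**
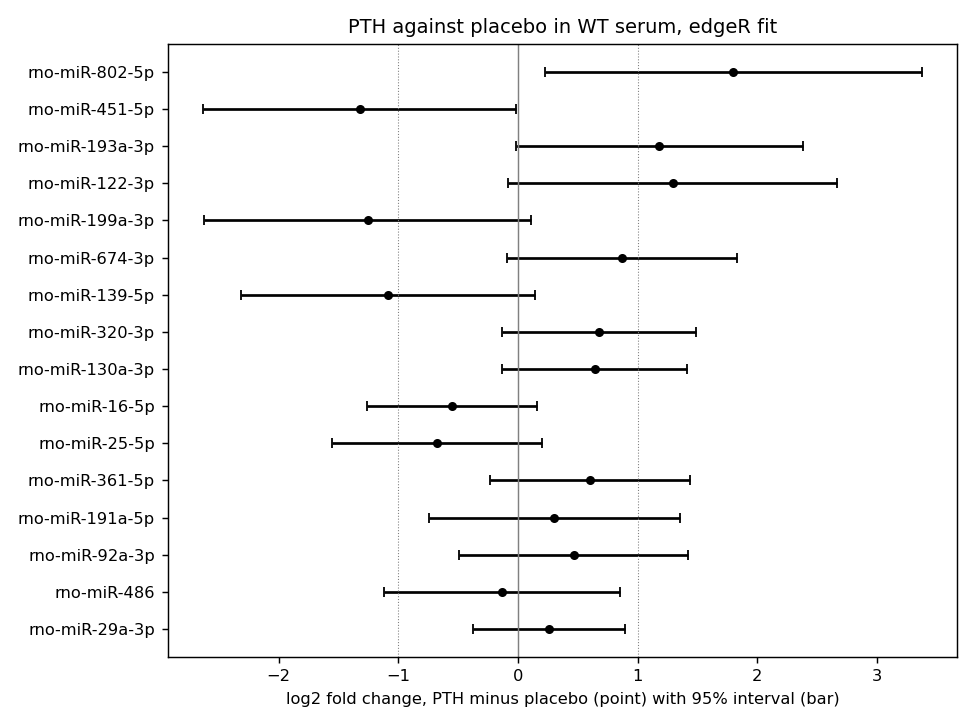
Log2 fold change of PTH against placebo in WT serum with its 95% interval from the edgeR fit, for the 12 miRNAs of smallest p and the most abundant ones (miR-16-5p and miR-451-5p are both). The intervals of miR-802-5p and miR-451-5p exclude zero before adjustment, and the dotted lines mark a 2-fold change either way.

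Among the other leading miRNAs, miR-193a-3p, a regulator of cell growth, measured 66.8, 209, 293, 436 and 91.2 CPM in PTH rats 1 to 5 and 47.2, 44.8, 164, 124 and 100 CPM in placebo rats 1 to 5. 3 PTH-treated rats lay above all placebo rats, and the log2 fold change was 1.18 ± 0.56 (edgeR p = 0.0533, exact permutation p = 0.143). miR-674-3p measured 85.9, 134, 172, 227 and 124 CPM under PTH against 68.2, 123, 31.2, 68.6 and 116 CPM under placebo. Although the groups overlapped in miR-674-3p, 4 of 5 PTH-treated rats exceeded every placebo rat (log2 fold change 0.87 ± 0.45, edgeR p = 0.0736, exact permutation p = 0.0397). miR-320-3p measured 10219, 15506, 5360, 12968 and 16799 CPM under PTH against 13095, 5360, 6186, 5778 and 7566 CPM under placebo. 4 PTH-treated rats exceeded 4 of the placebo rats, with PTH rat 3 and placebo rat 1 against the trend. Its log2 fold change was 0.68 ± 0.38 (edgeR p = 0.0943, exact permutation p = 0.135).

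miR-130a-3p, a miRNA of endothelial and blood-forming cells, and miR-361-5p also had higher means under PTH. miR-130a-3p measured 3187, 4432, 2516, 5202 and 6948 CPM under PTH against 3640, 3290, 2957, 1592 and 2810 CPM under placebo (log2 fold change 0.64 ± 0.36, edgeR p = 0.0973, exact permutation p = 0.111). Under extraction-control scaling its log2 fold change was -0.043. miR-361-5p measured 827 to 2056 CPM, median 1000.3, under PTH and 569 to 1070 CPM, median 686, under placebo (log2 fold change 0.60 ± 0.39, edgeR p = 0.145, exact permutation p = 0.119). Both miRNAs overlapped between the groups.

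miR-199a-3p, which is made by mesenchymal cells including the bone-forming lineage, was the leading miRNA with a lower mean under PTH apart from miR-451-5p. It measured 95.4, 239, 758, 446 and 49.8 CPM in PTH rats 1 to 5 and 283, 559, 765, 837 and 1297 CPM in placebo rats 1 to 5. PTH rats 1, 2 and 5 lay below every placebo rat and PTH rats 3 and 4 lay within the placebo range. The log2 fold change was -1.26 ± 0.64 (edgeR p = 0.0693, exact permutation p = 0.0635), and without PTH rat 3 it was -1.82 (FDR = 0.620). miR-139-5p measured 85.9, 59.7, 17.2, 109 and 124 CPM under PTH against 152, 380, 39.0, 206 and 116 CPM under placebo. In each group its lowest rat was rat 3, and the log2 fold change was -1.08 ± 0.58 (edgeR p = 0.0796, exact permutation p = 0.183).

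miR-16-5p and miR-25-5p had smaller differences, both lower under PTH in the mean. miR-16-5p, one of the main miRNAs of blood cells, measured 55954, 75707, 36661, 48069 and 52910 CPM under PTH against 56478, 78771, 73518, 58484 and 126746 CPM under placebo. 4 of 5 PTH-treated rats lay below the lowest placebo rat, at a log2 fold change of -0.55 ± 0.33 (edgeR p = 0.120, exact permutation p = 0.0635). miR-25-5p measured 66.8, 194, 207, 164 and 166 CPM under PTH against 184, 201, 242, 302 and 340 CPM under placebo. The overlap came from PTH rats 2 and 3 (log2 fold change -0.68 ± 0.41, edgeR p = 0.121, exact permutation p = 0.0397). Over the 170 tested miRNAs an exact permutation p below 0.05 was reached by 3, the third being miR-140-5p. Up to 8.5 would reach it with no difference at all, so these 3 are not evidence of a difference. The smallest p that 5 against 5 allows is 0.00794.

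The most abundant miRNAs of serum did not pass the test. miR-191a-5p, the most abundant one, ranged from 74707 to 327689 CPM (median 86535) under PTH and from 58493 to 225428 CPM (median 118093) under placebo, with a log2 fold change of 0.30 ± 0.49. miR-92a-3p, of the miR-17-92 cluster, ranged from 43521 to 163347 CPM (median 54589) under PTH and from 31446 to 119311 CPM (median 58895) under placebo, with a log2 fold change of 0.47 ± 0.45. For both, the means were higher and the medians lower under PTH. miR-29a-3p, a repressor of collagen genes, had the tightest interval. It ranged from 35105 to 54953 CPM under PTH and from 30045 to 52136 CPM under placebo. All 5 PTH-treated rats lay above 4 of the placebo rats, and the log2 fold change was 0.26 ± 0.30 (95% interval -0.37 to 0.90).

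Bone-related miRNAs are of interest because PTH acts on bone. Of 16 listed miRNAs of bone-forming and mesenchymal cells, 13 were tested, 5 lay above zero and 8 below, the median was -0.078 and 0 passed FDR < 0.2. That median had no stable sign: leaving out a rat gave -0.34 (without placebo rat 1) to 0.36 (without placebo rat 3), with 4 to 7 miRNAs above zero, and extraction-control scaling gave -0.40. Apart from miR-199a-3p, they lay between a log2 fold change of -0.56 (miR-34a-5p) and 0.53. miR-214-3p, which restrains osteoblasts, had -0.31 ± 0.53. Of 7 listed osteoclast miRNAs, 4 were tested with a median of 0.050 (-0.20 to 0.34 with a rat left out), from -0.43 ± 0.35 for miR-148a-3p to 0.59 ± 0.56 for miR-31a-5p. Of the cartilage list, the arms of miR-140 were tested and went in opposite directions, with miR-140-5p at -0.54 ± 0.37 and miR-140-3p at 0.27 ± 0.36. miR-140-5p measured 286, 254, 259, 291 and 249 CPM under PTH against 315, 392, 390, 261 and 594 CPM under placebo, where placebo rat 4 alone lay within the PTH range (exact permutation p = 0.0317, edgeR p = 0.165).

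Other organ markers gave no called miRNA either. Of 8 striated muscle miRNAs, 2 were tested, and they varied widely between rats. miR-133a-3p measured 611, 15535, 42401, 12522 and 3308 CPM in PTH rats 1 to 5 and 1426, 2171, 37344, 10253 and 21795 CPM in placebo rats 1 to 5. Its highest values were in PTH rat 3 and placebo rat 3, the sera with the highest values on the first principal component, and the group difference was 0.026 ± 0.92 on the log2 scale. miR-375-3p, of pancreatic islets and gut endocrine cells, was the only tested member of the pancreas list. It ranged from 414 to 1784 CPM (median 1164) under PTH and from 178 to 1794 CPM (median 392) under placebo, with a log2 fold change of 0.75 ± 0.61 (edgeR p = 0.238, exact permutation p = 0.143).

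The remaining lists had medians whose sign depended on single animals. The median log2 fold change was 0.049 over 3 platelet and myeloid, -0.18 over 4 lymphocyte and inflammation, -0.14 over 3 smooth muscle, -0.091 over 4 endothelial and -0.18 over 5 kidney miRNAs. It was 0.25 over 7 let-7, -0.095 over 10 miR-17-92-related, 0.33 over 2 neural and 0.19 over 8 serum reference miRNAs. Leaving out a rat gave medians on both sides of zero for each of these lists, with the widest ranges for neural (-0.33 to 0.60), let-7 (-0.37 to 0.55), kidney (-0.50 to 0.32) and platelet and myeloid miRNAs (-0.34 to 0.48). Extraction-control scaling gave -0.63 for the miR-17-92-related, -0.55 for the endothelial and -0.54 for the smooth muscle list, against -0.30 over all tested miRNAs. 0 miRNAs of these lists passed FDR < 0.2. The let-7 miRNAs, suppressors of growth genes, lay between -0.43 (let-7g-5p) and 0.83 (let-7a-5p), and let-7a-5p reached 965 CPM in PTH rat 3 while every other serum lay between 73.4 and 291 CPM.

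**Figure D4:**
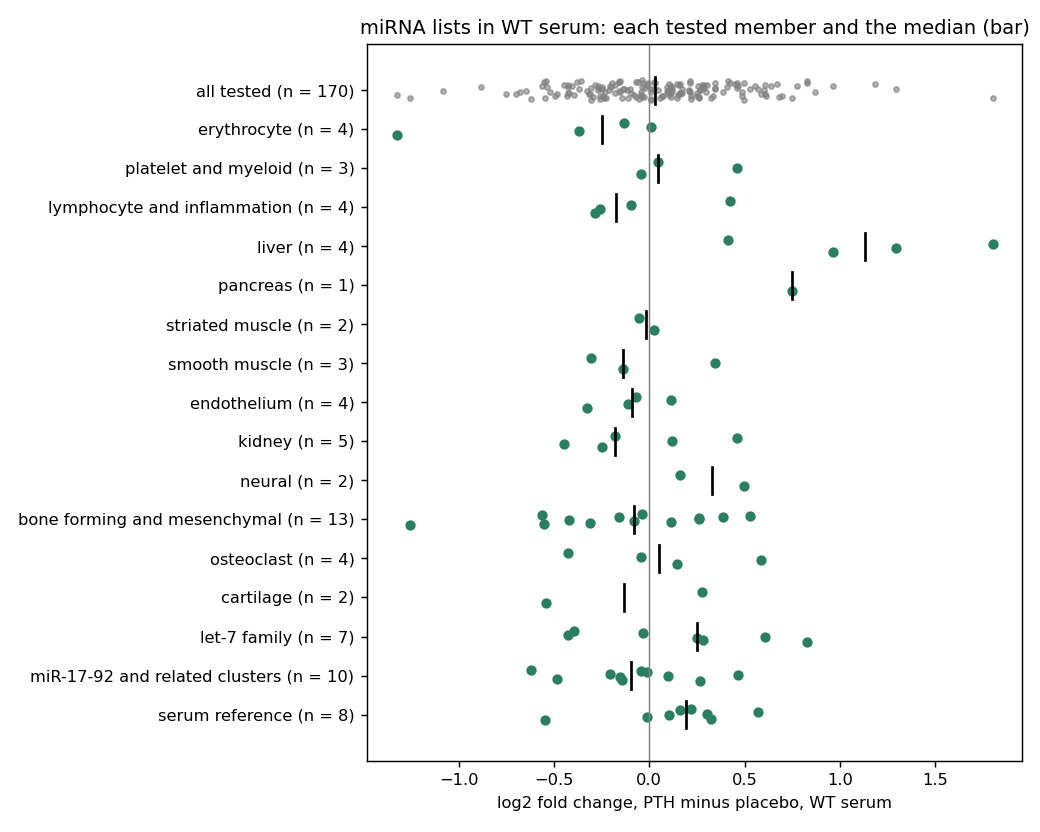
Log2 fold change of PTH against placebo in WT serum for each tested miRNA of the marker and family lists, with the median of each list as a bar and all 170 tested miRNAs in grey for comparison. The liver list is the one whose 4 points all lie to the right, with a median of 1.13, and the other lists of more than 1 miRNA have medians between -0.25 and 0.33.

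The number of calls depended on how low-count miRNAs were treated. When every miRNA with at least 1 read entered the edgeR fit and the mean-level filter with most calls was taken, 3 of 278 (1.08%) passed FDR < 0.2. These were miR-192-3p and miR-802-5p, higher under PTH, and miR-451-5p, lower under PTH, at FDRs of 0.102, 0.183 and 0.197. That filter was picked for its number of calls, so these FDRs do not hold at their stated level. miR-192-3p, the minor arm of the miR-192 hairpin shown above, had 5, 6, 0, 15 and 8 reads in PTH rats 1 to 5 and 0, 2, 0, 0 and 2 reads in placebo rats 1 to 5. In miR-192-3p, 4 PTH-treated rats lay above all placebo rats while PTH rat 3 had no read (exact permutation p = 0.0794 with all rats). This miRNA was named for its call in that fit, so its pattern is not separate support for that of miR-802-5p. No fold is given for miR-192-3p because its placebo level lay under the floor of 3 reads.

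The response of WT rats was set beside that of diabetic ZDF rats, in which 0 of 154 miRNAs (0%) passed FDR < 0.2 for PTH against placebo in serum (edgeR, 4 at an unadjusted p below 0.05). miR-802-5p had a log2 fold change of -0.30 ± 0.58 in ZDF serum, miR-122-3p of -0.53 ± 0.50, miR-199a-3p of 0.84 ± 0.52 and miR-451-5p of 0.53 ± 0.50. A test of the difference between the 2 responses called 0 of 182 miRNAs (0%), with 7 at an unadjusted p below 0.05. This count, like that in ZDF serum, is below the number reached with no difference at all. miR-802-5p and miR-122-3p were among those 7, with a WT minus ZDF difference of 2.25 ± 0.97 and 1.92 ± 0.83 on the log2 scale, as were miR-193a-3p (1.70 ± 0.77) and miR-199a-3p (-1.95 ± 0.88), each at an FDR of 0.866. These miRNAs were named for a small p in the WT comparison. The same WT sera enter this test, so a small p here is not separate support. With all 32 sera scaled together, the mean level of miR-802-5p under PTH in WT rats was 409.7 ± 327 CPM (SD, n = 5). It lay between that of placebo-treated WT rats (114 ± 53.8 CPM) and that of placebo-treated ZDF rats (805 ± 392 CPM). Its range of 0 to 844 CPM overlapped the range of each. Placebo-treated WT rats had the lowest mean of all serum groups, and WT rats under anti-sclerostin had 228 ± 127 CPM. The miRNAs of smallest p all had WT means under anti-sclerostin on the same side of placebo as under PTH. Examples are miR-199a-3p (177 against 703 CPM under placebo) and miR-320-3p (12180 against 7128 CPM). The same placebo sera enter both comparisons, and whether these differences are particular to PTH was not tested.

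The same treatment in the ulna of WT rats, with 4 libraries in each group, called 23 of 222 miRNAs (10.4%), of which 8 were higher and 15 lower under PTH. This count was unstable, since it fell to 0 without placebo bone library 2, 3 or 4 and reached 87 without placebo bone library 1. Of the 23, 19 were tested in WT serum and 0 of those had an unadjusted edgeR p below 0.05, where 1.18% of all tested miRNAs did, so that this count says nothing particular about them. The 5 that were higher in bone had serum log2 fold changes between -0.25 and -0.072. They included miR-30a-5p, at 1.69 ± 0.61 in bone and -0.25 ± 0.49 in serum, and miR-143-3p, a smooth muscle miRNA, at 1.61 ± 0.61 in bone and -0.14 ± 0.38 in serum. Of the 14 that were lower in bone, 9 lay below zero and 5 above it in serum. miR-139-5p was the lowest of them in serum, at -1.08 ± 0.58 beside -1.57 ± 0.59 in bone. miR-31a-5p was the highest, at 0.59 ± 0.56 beside -2.04 ± 0.62 in bone.

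**Figure D5:**
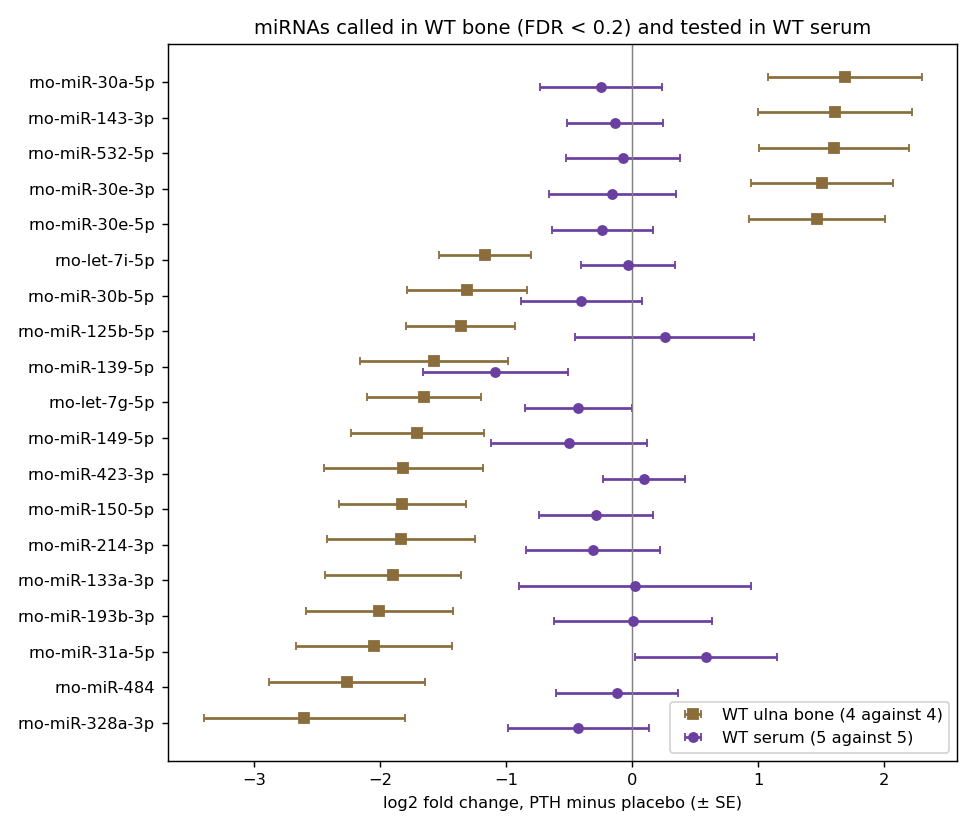
Log2 fold change (± SE) of PTH against placebo for the 19 miRNAs that passed FDR < 0.2 in WT ulna bone (squares, 4 against 4 libraries) and were tested in WT serum (circles, 5 against 5 libraries). The serum values lie between -1.08 and 0.59, with 9 on the same side of zero as in bone and 10 on the other.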

How the data were processed

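Small RNA was sequenced from serum and ulna bone with a kit for biofluid miRNAs. The authors trimmed adapters with cutadapt, dropped reads under 17 nucleotides and mapped the rest with Bowtie, allowing 2 mismatches to the Ensembl rat genome (Rnor.6.0) and then 1 to mature miRNAs. They deposited, for each library, a count of reads for each rat miRNA and added control RNA, and reads scaled to the library total (RPM). RPM served only to recover library totals, and the other deposited normalized column was not used. All sample titles begin with ZDF, so genotype was taken from the group label. Nothing but separate labels shows that sera came from separate rats, as the study states.

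Counts entered edgeR 4.0.16 under R 4.3.3 (TMM, filterByExpr at its minimum count of 10, quasi-likelihood test, Benjamini-Hochberg FDR < 0.2), followed by a filter on mean level under the DESeq2 stopping rule, which removed nothing with 10 or fewer calls. filterByExpr is not named in the study's methods. It was added because fits of every miRNA with 1 read had given many calls in data simulated without a difference. The fit without it is reported as an alternative. The tests were checked on simulated data. DESeq2 1.42.0, other scalings, extraction-control scaling, a hemolysis covariate, 1 fit of all serum groups and leaving out each replicate were alternatives. Exact permutation tests were two-sided on mean log2(CPM + 1). Sera held between 53249 and 205664 miRNA reads each.

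Standard errors come from the edgeR fit. The closest pair of the 10 libraries differed by more than counting noise (chi-square per degree of freedom 6.99), so none was counted once with another. The miRNAs given in full are the 12 with the smallest p, the 6 with the highest mean CPM, those called in bone, and from each list its most abundant and most changed member; miR-192-3p, miR-140-5p, miR-23a-5p, miR-802-3p and further members and relatives were named after their values were seen. The members and the lists were chosen with earlier results of these data known.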

Additional observations from a re-analysis of the deposited data

Results flagged for a closer look

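In 46 groups of 5 sera examined for a rat far from the rest (Dixon's gap test), 3 held one, and chance alone sets a rat apart in about 1 in 20 groups. miR-802-5p stood at 0 CPM in PTH rat 3 while the other PTH-treated rats lay between 232 and 895 CPM. miR-25-5p stood at 66.8 CPM in PTH rat 1 while the others lay between 164 and 207 CPM. miR-29a-3p stood at 52136 CPM in placebo rat 5 while the other placebo rats lay between 30045 and 32500 CPM.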

How the results depend on the processing

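For the 16 miRNAs described one by one, 354 of 365 values under alternatives had the direction and the side of the FDR threshold of the reported value, 8 changed sign and 3 passed FDR < 0.2. An unchanged sign did not mean an unchanged size. With all rats kept, alternatives lowered miR-320-3p to 0.044, miR-92a-3p to 0.031, miR-122-3p to 0.22, miR-361-5p to 0.23 and miR-802-5p to 0.93. They also enlarged others, such as miR-16-5p to -1.11 and miR-451-5p to -2.03. Sign changes were -0.043 for miR-130a-3p and -0.11 for miR-29a-3p with extraction-control scaling; 0.045 for miR-451-5p, -0.25 for miR-191a-5p and 0.0055 for miR-486 with the hemolysis covariate; 0.046 and 0.027 for miR-486 without placebo rat 4 or PTH rat 4; and -0.20 for miR-191a-5p without PTH rat 5. Leaving out a rat gave -0.58 to 0.046 for miR-486 and -0.20 to 0.64 for miR-191a-5p, and moved these other values by over 1.5 times: without PTH rat 5, miR-92a-3p (0.046), miR-361-5p (0.23), miR-130a-3p (0.30), miR-320-3p (0.41) and miR-29a-3p (0.14); without PTH rat 4, miR-193a-3p (0.71) and miR-29a-3p (0.15); without PTH rat 3, miR-92a-3p (0.73); without placebo rat 1, miR-92a-3p (0.84) and miR-29a-3p (0.18); without placebo rat 2, miR-139-5p (-0.58); without placebo rat 5, miR-451-5p (-0.55), miR-16-5p (-0.31) and miR-29a-3p (0.44). The cause was not tested.

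The count of 0 called miRNAs became 3 and 1 with every miRNA of at least 1 read (with and without the mean-level filter), and 0 to 1 over the 10 fits that left out a rat. Without both sera of highest first principal component, an alternative chosen after seeing the data, it was 0, with 8 at an unadjusted p below 0.05 and a lowest FDR of 0.207 (miR-802-5p). With every miRNA of at least 1 read, the calls were 5 in ZDF serum, 6 for the difference between WT and ZDF and 55 in WT bone. In WT bone, leaving out a library gave 0 to 87 calls. Leaving out a rat gave log2 differences of -0.23 to 0.23 in library total (0.0033 with all rats), -0.26 to 0.74 in extraction-control reads (0.11) and -0.72 to -0.15 in miRNA share (-0.37). No paired analysis was possible because the labels give no shared replicate numbers. Depth limits miRNAs under about 100 CPM, where a serum of 53249 miRNA reads holds few counts.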

Other observations

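Related miRNAs among the 151 with a RefSeq sequence were grouped by shared seed or by place in the genome, as a description with no test. The 4 with the seed AGCAGCA had a median log2 fold change of -0.46, from -0.70 for miR-15b-5p and -0.55 for miR-16-5p to 0.17 for miR-322-5p, and their relative miR-15a-5p had -0.10. The 3 with the seed GUAAACA, miR-30a-5p, miR-30c-5p and miR-30e-5p, lay between -0.44 and -0.24, while of their relatives miR-30b-5p had -0.40 and miR-30d-5p 0.12. All 6 tested miRNAs of the miR-106b-25 cluster on chromosome 12 lay below zero, from -0.68 for miR-25-5p to -0.010 for miR-93-5p. They are the arms of the miR-106b, miR-93 and miR-25 hairpins, and 79 of all 170 tested miRNAs lay below zero. In another cluster, on chromosome 17, miR-23b-3p, miR-24-3p and miR-27b-3p all lay above zero, from 0.074 to 0.25. Of 26 hairpins with both arms tested, 18 had arms of the same sign, among them miR-122 and miR-199a, and 8 had arms of opposite sign, among them miR-140.

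miR-23a-5p, the minor arm of an abundant miRNA, had too few reads to be tested in the edgeR fit reported. It is named because it was the 1 miRNA of the 485 with a read whose groups did not overlap, so no p is given, with 4, 2, 0, 2 and 5 reads in PTH rats 1 to 5 and 12, 7, 10, 8 and 22 reads in placebo rats 1 to 5. It was not called in the edgeR fit of every miRNA with at least 1 read. No fold is given for it because several of its PTH counts lie under the floor of 3 reads. The major arm, miR-23a-3p, had a log2 fold change of 0.32 ± 0.35. miR-802-3p, the other arm of the miR-802 hairpin, had 3, 3, 0, 2 and 3 reads in PTH rats 1 to 5 and 1, 0, 0, 1 and 0 reads in placebo rats 1 to 5, with its only empty PTH library in the same rat as miR-802-5p. All these counts lie at or under the floor of 3 reads. PTH rat 3 had the shallowest library, so its empty count is not separate support for that of miR-802-5p.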
